A study of Mus musculus with 6 samples.

Results

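The Krüppel-like factors are zinc finger transcription factors, and 10 of their genes are described here, found by symbol among 23366 genes listed: Klf2, Klf3, Klf4, Klf5, Klf6, Klf7, Klf9, Klf10, Klf13 and Klf15. All 10 had a mean of at least 10 normalized counts, each library scaled by its own size factor, and were among the 12820 genes tested. RNA came from SC4, a mouse Schwann cell line from a schwannoma and null for Nf2, which encodes the tumour suppressor merlin. Cells received a control siRNA or pooled siRNAs against YAP, the transcriptional co-activator at the end of the Hippo pathway, and were harvested 48 hours later, with 3 libraries per group numbered 1 to 3. Both groups are the same Nf2-null line, so no cells with merlin are compared, and nothing in the labels tells whether the libraries of a group are separate cultures. The p-values therefore rest on library-to-library spread, possibly technical only.

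Proteins of this family bind GC-rich and CACCC sequences through zinc fingers at the carboxyl end, and differ in the part outside them. KLF2, KLF4, KLF5, KLF6 and KLF7 act mostly as activators through acetyltransferases, KLF3 (with KLF8 and KLF12) recruits the CtBP co-repressors, and KLF9, KLF10 and KLF13 (with KLF11 and KLF16) recruit the SIN3A co-repressor. KLF4 is a reprogramming factor that slows division in many epithelia, KLF5 favours proliferation, and in human breast cancer cells YAP has been reported to protect KLF5 protein from degradation; proteins were not measured here.

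Klf4, Klf6 and Klf7 of the activator group and Klf13 of the SIN3A group rose after YAP siRNA, and Klf5 fell, whereas Klf2, Klf3, Klf9, Klf10 and Klf15 did not pass the test. These calls come from limma with the replicate number as a block ("blocked"). Here "rose" and "fell" mean an adjusted p under 0.05, over all genes, in that fit. The fit set as the main one had no block. The block was used because same-numbered libraries correlated in their deviations from group means (0.788, 0.705 and 0.532). Only number 1 stood out: control 2 with YAP 3 (0.552) and control 3 with YAP 2 (0.516) were about as close as number 3. The blocked fit called 4 of the 10 members higher, beside 8.32% of all genes tested, and 1 of 10 lower, beside 8.96%. Without the block limma called 0 members and 0% of all genes; at an unadjusted p under 0.05 there were 2 members, beside 12.2% of all genes. On recovered reads without the block edgeR called 0 members, and DESeq2 called 1 higher, Klf4, beside 2.57% of all genes.

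The promoters of the 4 genes that rose are shown for the kinds of site the family itself binds, and that of Klf2 for a MEF2 site. Promoters of members that did not pass carried sites of these kinds too. Sequences are from RefSeq (GRCm38.p6) and run from 250 bases before the transcription start to 50 after it, written 5′ to 3′ on the gene's strand; 8 of the 10 members had an entry, Klf5 and Klf10 not among them. Capitals mark a GC box, a CACCC box or a MEF2 site, each searched on both strands; a pair of GC boxes share a base in the Klf4 sequence, as do a GC box and a CACCC box in that of Klf13. Klf4 lies at chr4:55532426-55532725 (minus strand), Klf6 at chr13:5861239-5861538 (plus), Klf7 at chr1:64121340-64121639 (minus), Klf13 at chr7:63938866-63939165 (minus) and Klf2 at chr8:72318812-72319111 (plus).
Klf4: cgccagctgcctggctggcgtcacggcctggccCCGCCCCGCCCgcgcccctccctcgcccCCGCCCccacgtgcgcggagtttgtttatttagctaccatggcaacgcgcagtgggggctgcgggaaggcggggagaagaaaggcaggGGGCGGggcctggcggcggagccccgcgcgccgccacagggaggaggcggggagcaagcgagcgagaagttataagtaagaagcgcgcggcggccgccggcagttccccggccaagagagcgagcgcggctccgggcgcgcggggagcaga
Klf6: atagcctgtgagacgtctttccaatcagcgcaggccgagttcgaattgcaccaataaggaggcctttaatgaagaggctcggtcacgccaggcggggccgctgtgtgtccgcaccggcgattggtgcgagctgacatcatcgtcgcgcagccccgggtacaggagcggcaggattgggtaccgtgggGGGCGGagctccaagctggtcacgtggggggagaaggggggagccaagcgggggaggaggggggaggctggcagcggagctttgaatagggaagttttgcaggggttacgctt
Klf7: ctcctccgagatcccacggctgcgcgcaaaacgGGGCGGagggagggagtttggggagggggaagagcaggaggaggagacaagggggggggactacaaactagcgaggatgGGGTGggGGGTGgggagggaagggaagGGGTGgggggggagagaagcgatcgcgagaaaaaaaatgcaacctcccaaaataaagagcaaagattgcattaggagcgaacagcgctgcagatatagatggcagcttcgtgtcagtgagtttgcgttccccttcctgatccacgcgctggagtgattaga
Klf13: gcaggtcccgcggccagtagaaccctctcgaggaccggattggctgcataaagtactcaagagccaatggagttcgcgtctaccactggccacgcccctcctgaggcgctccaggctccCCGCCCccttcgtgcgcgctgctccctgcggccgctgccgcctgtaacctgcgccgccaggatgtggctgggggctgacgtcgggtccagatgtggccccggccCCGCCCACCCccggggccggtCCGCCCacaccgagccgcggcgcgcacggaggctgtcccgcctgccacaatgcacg
Klf2: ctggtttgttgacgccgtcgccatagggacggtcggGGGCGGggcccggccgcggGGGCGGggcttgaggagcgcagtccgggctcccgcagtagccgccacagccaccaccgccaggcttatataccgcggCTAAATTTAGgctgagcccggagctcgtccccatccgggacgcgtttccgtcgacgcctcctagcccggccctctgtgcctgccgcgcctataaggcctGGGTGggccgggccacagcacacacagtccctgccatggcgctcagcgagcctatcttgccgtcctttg

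A GC box (the letters GGGCGG) was found in 7 of the 8 member promoters, beside 35.7% of 32851 promoters in the table, and a CACCC box (those letters) in 6 of 8, beside 57.5%. The member promoters had a GC content of 58.3% to 76.7%, above the median of 52.7% over all promoters (quartiles 45.7% and 61.7%). Klf4, Klf6, Klf7 and Klf13, which rose, had 74.3%, 63%, 58.3% and 72%, so Klf7 lay within the quartiles. Klf2, Klf3, Klf9 and Klf15, which did not pass, had 69.3%, 76.7%, 63.3% and 73.3%. Klf4 and Klf6 had 0 CACCC boxes and Klf9 had 0 GC boxes. The TEAD core GGAATG, the letters that YAP's DNA-binding partners recognise, was in 0 of the 8 windows and in 14.7% of all promoters. A MEF2 site, 10 bases long, was found in Klf2, 1 of 8, beside 3.19% of all promoters; an SRF CArG box was in 0 of 8 and in 1.63% of all. These matches are descriptions of letters in a short window.

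The libraries were deep for most members. Recovered reads in genes ranged from 18025132 to 60078880 per library. Yap1, the target of the siRNA pool, had 4749.6, 5731.7 and 4751.4 normalized counts in control libraries 1, 2 and 3 and 936, 571 and 475 after YAP siRNA, a log2 fold change of −3.00 (blocked limma adjusted p = 0.000451, unblocked 0.118). Libraries numbered 1 stood apart from the others in both groups: deviations from the group mean correlated at 0.788 between them. Of the Schwann cell markers, 9 of 12 had a mean of at least 10, of which 2 rose and 1 fell, beside 8.32% and 8.96% of all genes. Schwann cell markers summed to 8892 to 11589 in the controls and 8757 to 17130 after YAP siRNA. However, Sox10, the defining factor of the lineage, ran from 0 to 15.6 normalized counts. Fibroblast markers summed to 274860 to 572470 normalized counts in the controls and 221940 to 431480 after YAP siRNA. Of 6 tested 3 fell, beside 8.96% of all genes. The sums were mostly the collagen genes Col1a1, Col1a2 and Col3a1 (control means 212139, 188451 and 53944). Pdgfra, also abundant, had means of 7996 in the controls and 9061 after YAP siRNA and did not pass (blocked limma adjusted p = 0.169). Dcn had means of 143 and 80.1 and Thy1 of 109 and 141 in the same order. Lum was at most 4.15 and Fap was 0 in each library. Among endothelial markers, relevant because Klf2 and Klf4 are well known in that cell type, 4 of 7 had a mean of at least 10 with sums from 159 to 268 in the controls and 205 to 288 after YAP siRNA, and Tek, Tie1 and Cldn5 were under 3 reads in each library; immune markers summed to 133 to 178 over all libraries. Epithelial markers summed to 269 to 504 in the controls and 84.1 to 99.5 after YAP siRNA. The drop was mostly in Krt18 (means 298 and 56.4) and Krt8 (78.1 and 19.8). Among the rest, at low values, Epcam (19.3 and 7.81) and Krt5 (2.66 and 0.502) were lower. Cdh1 (1.27 and 4.18) and Krt14 (0.520 and 5.13) were higher. The part of any such shift of markers in the results below was not tested. Fewer cells of a kind and less RNA per cell cannot be told apart in bulk RNA.

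Levels compared per kilobase of the longest coding transcript (GENCODE M21) placed Klf10 and Klf6 at the top. In the controls the order was Klf10 at 966 ± 88.3, Klf6 at 786 ± 196, Klf9 at 451 ± 80.0, Klf5 at 403 ± 186, Klf13 at 387 ± 66.1, Klf3 at 323 ± 20.1, Klf4 at 160 ± 40.1, Klf7 at 34.8 ± 4.82, Klf2 at 12.5 ± 8.18 and Klf15 at 7.42 ± 3.78 normalized counts per kb (SD, n = 3). Control libraries of Klf10 and Klf6 overlapped, as did those of Klf9, Klf5, Klf13 and Klf3 from each to the next, and those of Klf2 and Klf15. The steps from Klf6 to Klf9, from Klf3 to Klf4, from Klf4 to Klf7 and from Klf7 to Klf2 had no overlap. After YAP siRNA the mean of Klf6 was 1158 ± 215 per kb, above Klf10 at 916 ± 89.3. The order depends on the length taken: over all annotated exons Klf6 (756 per kb in the controls) stood above Klf10 (703), Klf13 (329) above Klf5 (260) and Klf4 (159) above Klf3 (150).

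**Figure D1:**
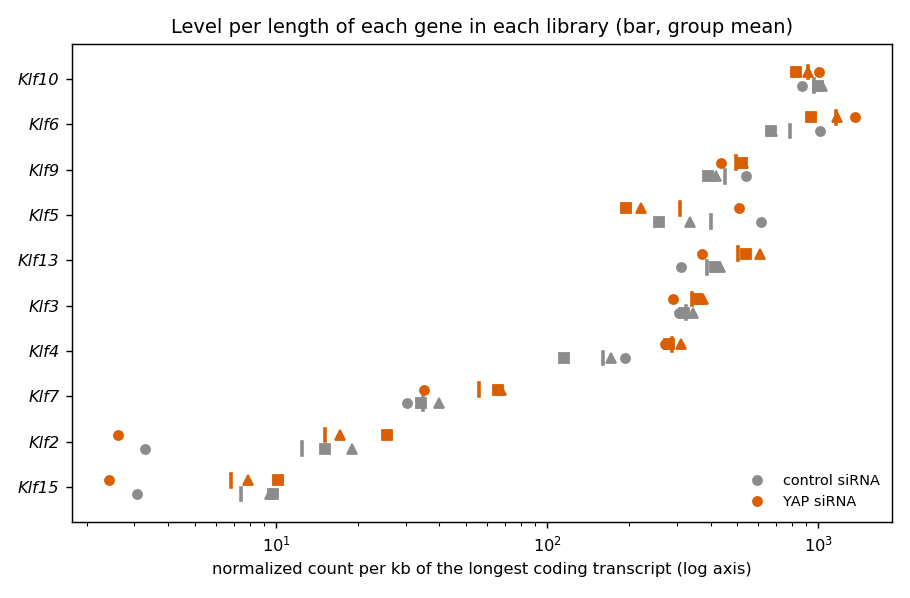
Normalized counts per kb of the longest coding transcript on a log axis, for each gene in each library (circle, square and triangle for replicates 1, 2 and 3; grey, control siRNA; orange, YAP siRNA; bars, group means). Klf10 and Klf6 are highest and Klf2 and Klf15 lowest, and the circles of Klf2 and Klf15 lie far below their other symbols in both groups.

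Klf4 rose and was the one member whose groups did not overlap. It had 584, 349 and 520 normalized counts in control libraries 1, 2 and 3, and 820, 850 and 942 after YAP siRNA. Each YAP siRNA library was above each control library; all genes tested split this way upwards in 9.47% and downwards in 9.49% of cases. The mean rose from 484 ± 121 to 870 ± 63.6 (SD, n = 3), 180% of the control, a log2 fold change of 0.88 (SE 0.164, 95% interval 0.50 to 1.25; blocked limma adjusted p = 0.0108, unblocked 0.232). On this log2(value + 1) scale, used for all fold changes here, the difference was 0.49, 1.28 and 0.86 within replicate numbers 1, 2 and 3. The two-sided p of an exact permutation over libraries was 0.1 for Klf4, the lower limit of a 3 against 3 design, and 0.2 to 0.9 for the other members.

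Klf6, a widely expressed activator induced early after tissue injury, was the most abundant member to rise. Its control libraries had 4279, 2828 and 2856 normalized counts and its YAP siRNA libraries 5773, 3956 and 4945. Library 1 was the highest of each group, and control library 1 lay above YAP siRNA library 2, so the groups overlapped although each replicate number rose, by 0.43, 0.48 and 0.79. Klf6 had a log2 fold change of 0.57 (SE 0.1002, 95% interval 0.34 to 0.80; blocked limma adjusted p = 0.0087, unblocked 0.385).

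Klf7, known for promoting axon growth in neurons, rose mainly in libraries 2 and 3. It had 232, 261 and 305 normalized counts in the controls and 269, 506 and 515 after YAP siRNA. YAP siRNA library 1 stayed below control library 3, and the difference within replicate numbers was 0.21, 0.95 and 0.75. For Klf7 the log2 fold change was 0.64 (SE 0.183, 95% interval 0.22 to 1.06; blocked limma adjusted p = 0.0450, unblocked 0.474). The call was close to the threshold and did not hold with no filter on low values (0.0538) or with quantile normalization (0.0519).

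Klf5 was the member that fell. It had 2058, 869 and 1128 normalized counts in control libraries 1, 2 and 3 and 1703, 656 and 743 after YAP siRNA. Library 1 was the highest of both groups, by more than any difference between siRNAs, and the groups overlapped; within replicate numbers the value fell by 0.27, 0.41 and 0.60. For Klf5 this gave a log2 fold change of −0.43 (SE 0.115, 95% interval −0.69 to −0.16; blocked limma adjusted p = 0.0373, unblocked 0.807).

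Klf2, which endothelial cells induce under flow through the ERK5 kinase and MEF2 factors, was barely detected. Its values were 6.07, 28.1 and 35.02 normalized counts in the controls and 4.81, 47.4 and 31.6 after YAP siRNA, from 4 to 76 reads a library. Both libraries numbered 1 held 4 reads and were far below the others, and the groups overlapped. Its log2 fold change of 0.10 had a 95% interval of −0.93 to 1.137 (blocked limma adjusted p = 0.893), wide enough to include a doubling.

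**Figure D2:**
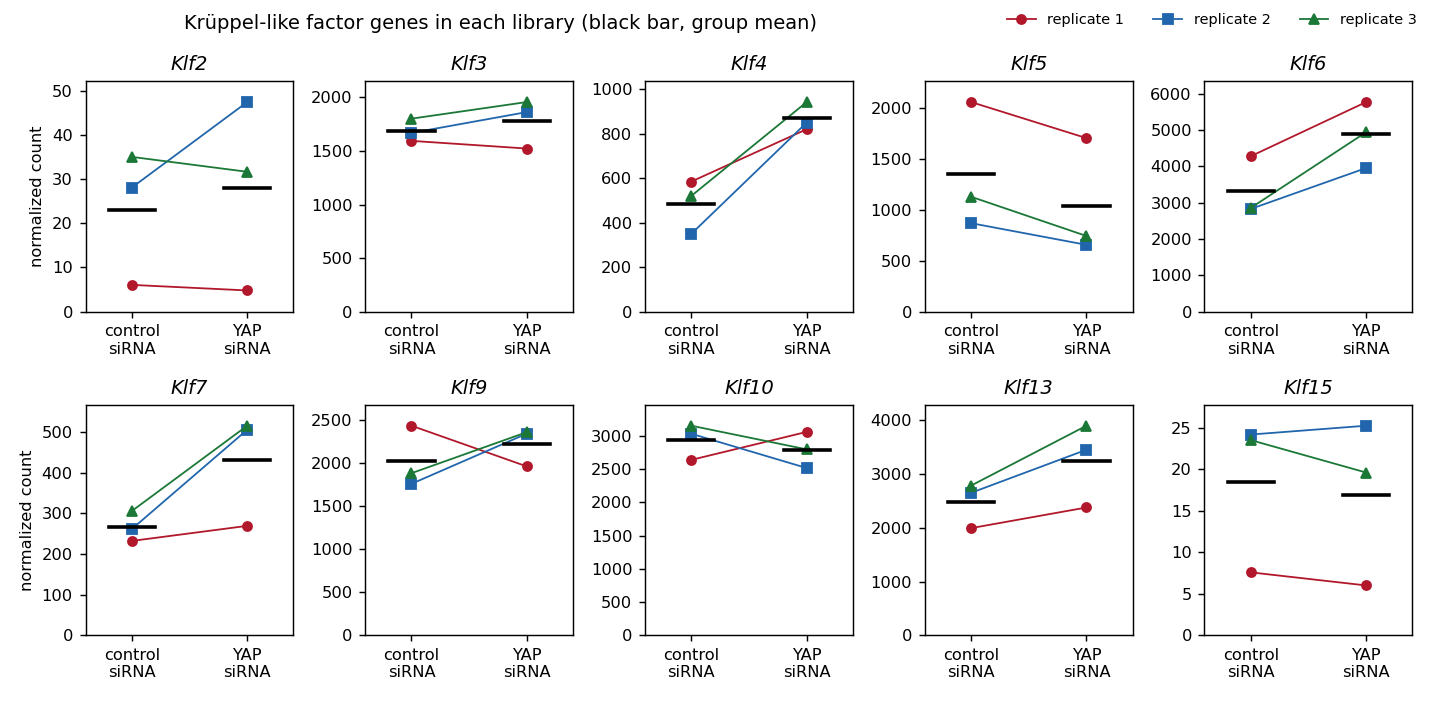
Normalized counts of each gene (y axis from 0, scaled per gene) in the control siRNA and YAP siRNA libraries; lines join libraries of the same replicate number and black bars are group means. All lines rise for Klf4, Klf6, Klf7 and Klf13 and all fall for Klf5, and replicate 1 (red circles) is high for Klf5 and Klf6 and low for Klf2 and Klf15 in both groups.

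Among members that recruit SIN3A, Klf13 rose. KLF13 is known as an activator of the chemokine gene Ccl5 in T cells. Klf13 had 1992, 2648 and 2782 normalized counts in the controls and 2377, 3449 and 3896 after YAP siRNA. Library 1 was lowest in both groups, and YAP siRNA library 1 lay below control libraries 2 and 3. Within replicate numbers the differences of 0.25, 0.38 and 0.49 all pointed up, and the log2 fold change was 0.37 (SE 0.0936, 95% interval 0.16 to 0.59; blocked limma adjusted p = 0.0299, unblocked 0.591).

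Klf9, a repressor induced by glucocorticoids and thyroid hormone, went in different directions by replicate number. It had 2431, 1757 and 1880 normalized counts in the controls and 1958, 2340 and 2357 after YAP siRNA. Number 1 was lower after YAP siRNA by 0.31 on the log2 scale (a difference of −0.31) and numbers 2 and 3 higher by 0.41 and 0.33, and the groups overlapped. The log2 fold change of 0.14 had a 95% interval of −0.19 to 0.47 (blocked limma adjusted p = 0.521). Without replicate 1, the number that went the other way, it was 0.37 and passed (blocked limma adjusted p = 0.00106, unblocked 0.0188). That blocked fit called 21.9% of all genes higher. Without replicate 2 the change was 0.0070 and without replicate 3 it was 0.051, and neither passed (blocked limma adjusted p = 0.990 and 0.907).

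Klf10, first described as a TGF-beta-inducible early gene, showed the mirror image. It had 2637, 3031 and 3151 normalized counts in the controls and 3058, 2515 and 2796 after YAP siRNA. Number 1 was higher after YAP siRNA by 0.21 while numbers 2 and 3 differed by −0.27 and −0.17, and the groups overlapped. The log2 fold change was −0.076 with a 95% interval of −0.33 to 0.18 (blocked limma adjusted p = 0.674). Without replicate 1 of both groups it was −0.22 and passed narrowly with the block (limma adjusted p = 0.0465), but not without it. That blocked fit called 21.8% of all genes lower. Without replicate 2 the change was 0.020 and without replicate 3 it was −0.028, and neither passed (blocked limma adjusted p = 0.967 and 0.950).

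Klf3, the CtBP-recruiting repressor, had a narrow interval that included 0. It had 1595, 1669 and 1802 normalized counts in the controls and 1523, 1864 and 1958 after YAP siRNA. The groups overlapped, with YAP siRNA library 1 the lowest of all 6. The log2 fold change was 0.071 with a 95% interval of −0.16 to 0.30 (blocked limma adjusted p = 0.660).

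Klf15, a glucocorticoid-induced regulator of amino acid catabolism, was the least abundant member per length. It had 7.59, 24.2 and 23.5 normalized counts in the controls and 6.01, 25.2 and 19.6 after YAP siRNA, from 5 to 51 reads a library. Both libraries numbered 1 held 5 reads and were again the lowest, and the groups overlapped. Its log2 fold change of −0.16 had a 95% interval of −1.22 to 0.90 (blocked limma adjusted p = 0.835). Klf15 was the only member of the 10 with the 7-mer CTACATA in an annotated 3′ UTR. Among tested genes with an annotated 3′ UTR, 195 of 1263 carriers fell and 96 rose, beside 891 and 897 of 10350 without it. The 7-mer had been picked in these data because its carriers were lower.

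**Figure D3:**
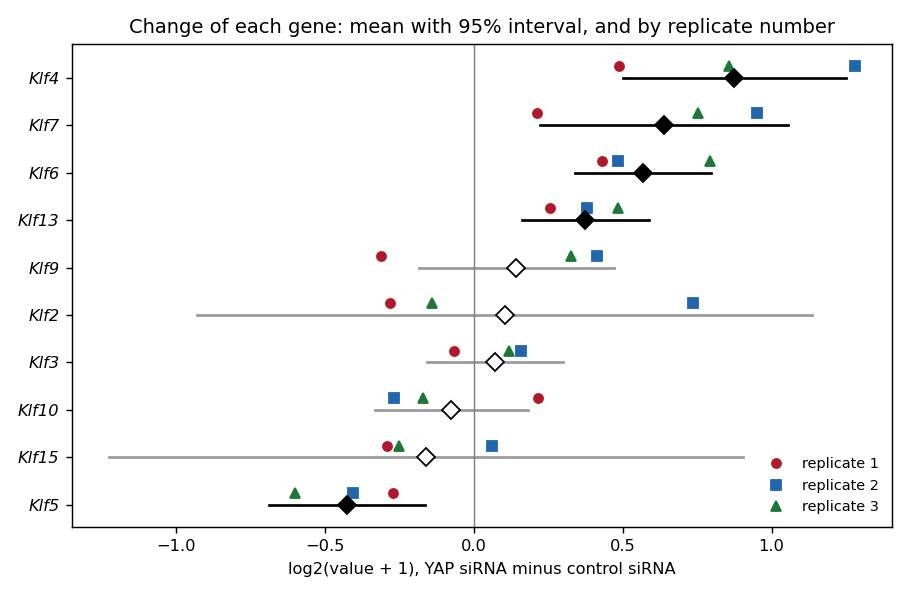
Difference in log2(value + 1) between YAP siRNA and control siRNA for each gene: diamonds and bars give the mean and 95% interval of the fit with the replicate block (filled, passed the test), and coloured symbols the difference within each replicate number. Filled diamonds lie to the right for Klf4, Klf7, Klf6 and Klf13 and to the left for Klf5; symbols fall on both sides of 0 for Klf9, Klf2, Klf3, Klf10 and Klf15.

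The calls depended on which libraries entered. With the block and without replicate 2 of both groups, limma called 0 members, beside 0.959% of all genes higher and 1.38% lower, with adjusted p = 0.112 for Klf4, 0.0707 for Klf6, 0.358 for Klf7, 0.254 for Klf13 and 0.236 for Klf5. Without replicate 3, Klf4 (0.00305) and Klf6 (0.0255) passed and Klf7 (0.160), Klf13 (0.185) and Klf5 (0.228) did not, beside 4.2% of all genes higher and 4.6% lower. Without replicate 1 limma with the block called 5 members higher, beside 21.9% of all genes, and 2 lower, beside 21.8%, so the share called was far above that with all libraries. Without the block the same libraries gave 5 members higher, beside 14.9% of all genes, and 1 lower, beside 16.4%. Each of these fits rests on 4 libraries. In the blocked fit without replicate 1, the variance of each gene came almost wholly from a value shared across genes, not from its own spread. The p-values and shares of that fit are therefore not comparable with those without replicate 2 or 3. In limma without a mean-variance trend no member and no gene of the related lists passed with the block (adjusted p from 0.101 for Klf4 to 0.136 for Klf7 among the 5 called), beside 0.0936% of all genes higher and 0.14% lower. With the block edgeR and DESeq2 each called 4 members higher and 1 lower, beside 9.28% and 10.1% of all genes for edgeR and 9.22% and 10.2% for DESeq2. The direction of these 5 genes was the same in each replicate number; that held upwards for 4 of 10 members and 27.4% of all genes tested, and downwards for 1 of 10 and 27.1%.

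For 3 members the libraries numbered 1 stood at least 2-fold apart from the others in both groups. Klf5 was higher in library 1 than in the mean of libraries 2 and 3 by 1.05 on the log2 scale in the controls and by 1.29 after YAP siRNA. Klf2 differed by −2.19 and −2.78 and Klf15 by −1.53 and −1.73 in the same comparison. A shift of that size in one direction in both groups was found for 13.7% of all genes tested; what distinguishes the libraries numbered 1 is not given in the labels.

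Other genes of the KLF and SP family were listed for comparison, 16 in all, of which 9 had enough counts to be tested. Of these 2 were higher (Klf11 and Klf8) and 1 lower (Sp4), beside 8.32% and 8.96% of all genes. Their median log2 fold change was 0.25, beside 0.12 for the 10 members and 0.0094 for all genes tested. The median of the 10 members depended on the libraries: it ran from 0.047 without YAP siRNA library 3 to 0.43 without YAP siRNA library 1, and with a replicate number left out from 0.023 (number 2) to 0.33 (number 1). Klf11, the closest relative of Klf10, had 173, 246 and 269 normalized counts in the controls and 308, 550 and 662 after YAP siRNA. The groups did not overlap, and its log2 fold change of 1.09 (SE 0.163; blocked limma adjusted p = 0.00513, unblocked 0.286) was above that of each of the 10 members, a difference between genes that was not tested. The call was lost without replicate 2 (blocked limma adjusted p = 0.0574).

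Klf8, a CtBP-recruiting factor like Klf3, had 484, 281 and 292 normalized counts in the controls and 593, 445 and 469 after YAP siRNA. The groups overlapped, since control library 1 lay above YAP siRNA libraries 2 and 3. The change of 0.55 on the log2 scale passed (blocked limma adjusted p = 0.0409) but was lost without replicate 2 (0.300) and without replicate 3 (0.194). Sp4, an SP factor with neuronal roles, had 243, 264 and 299 normalized counts in the controls and 117, 98.9 and 93.4 after YAP siRNA. All YAP siRNA libraries were below all controls, and Sp4 fell by 1.38 on the log2 scale (SE 0.206; blocked limma adjusted p = 0.00526, unblocked 0.142), also without any of the replicate numbers (largest adjusted p 0.0486). Sp4 and Klf8 both carry the 7-mer CTACATA in a 3′ UTR; its part in the value of Sp4 was not tested. The abundant relatives Sp1 and Sp3 each had a log2 fold change of 0.25 and did not pass (blocked limma adjusted p = 0.103 and 0.0812).

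The cascade that induces Klf2 and Klf4 in endothelium runs from the kinase MEKK3 (Map3k3) through MEK5 and ERK5 (Mapk7) to MEF2 factors, and the CCM proteins with their anchor HEG1 hold it back. Together with ubiquitin ligases of KLF proteins, 4 of its 13 genes rose and 2 fell, beside 8.32% and 8.96% of all genes. The median log2 fold change of this list was 0.22 (0.10 without replicate 3). Map3k3 rose from 1870, 1023 and 986 normalized counts to 2800, 2096 and 2000 in libraries 1, 2 and 3. Each YAP siRNA library was above each control, and the log2 fold change was 0.88 (SE 0.120; blocked limma adjusted p = 0.00368, unblocked 0.299; 0.0426 without replicate 2). Mapk7 rose by 0.54 and Heg1 by 0.59 on the log2 scale (blocked limma adjusted p = 0.0256 and 0.0127), but neither passed once replicate 2 was left out (0.203 and 0.127) or replicate 3 (0.120 and 0.0621). Krit1, which encodes one of the CCM proteins, was the remaining gene that rose, by 0.37 on the log2 scale (blocked limma adjusted p = 0.0443). It did not pass without replicate 2. Krit1 and the genes that fell were named after their values were seen. Those that fell were Mef2a, one of the MEF2 factors, and Fbxw7, a ubiquitin ligase subunit. Mef2a fell by 0.41 and Fbxw7 by 0.43 on the log2 scale (blocked limma adjusted p = 0.0284 and 0.0256), and neither passed once replicate 2 was left out (0.274 and 0.309). Mef2c and Mef2d had log2 fold changes of −0.28 and −0.26 and did not pass (blocked limma adjusted p = 0.0752 and 0.0920). The list counted 1 higher and 0 lower without replicate 2, and 1 and 1 without replicate 3.

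Glucocorticoid receptor signalling induces Klf9 and Klf15, and those of its other targets that passed moved both ways. Fkbp5, Tsc22d3, Per1, Sgk1 and Ddit4 did not pass (blocked limma adjusted p = 0.393, 0.967, 0.174, 0.235 and 0.173). Of 10 tested genes in this list 3 rose and 1 fell, beside 8.32% and 8.96% of all genes. The median of 0.055 turned to −0.049 without replicate 2 and −0.054 without replicate 3. Errfi1, a feedback inhibitor of the EGF receptor, fell by 0.60 on the log2 scale, and the phosphatase gene Dusp1 and the metallothionein gene Mt2 rose by 0.49 and 0.52 (blocked limma adjusted p = 0.00597, 0.0163 and 0.0166); none of the 3 passed without replicate 2 (0.0972, 0.222 and 0.211). Of 13 co-regulator genes 0 rose and 1 fell, beside the same shares of all genes (median −0.029, and −0.055 without replicate 3). The gene that fell was Sin3b, a paralogue of the SIN3A scaffold, with a log2 fold change of −0.34 (blocked limma adjusted p = 0.0417). It was lost without replicate 2 or 3 (0.327 and 0.228).

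Several Krüppel-like factor genes are induced early after stimulation, as are the immediate early genes. Of 12 immediate early genes tested 0 rose and 4 fell, beside 8.32% and 8.96% of all genes, with a median log2 fold change of −0.35. Jun, Junb and Egr1 had 0.022, −0.034 and 0.10 and did not pass (blocked limma adjusted p = 0.895, 0.899 and 0.667). Nor did Srf and Egr2, with 0.50 and 0.49 (0.0645 and 0.109). Without replicate 3 the median was −0.10 with 2 lower, without replicate 1 the list counted 2 higher and 6 lower, and blocked edgeR and DESeq2 called 1 and 2 of its genes higher. Egr3 had 319, 308 and 416 normalized counts in the controls and 130, 162 and 185 after YAP siRNA, with no overlap. It fell by 1.12 (blocked limma adjusted p = 0.00584, and 0.0417 without replicate 2). Fosl1 fell by 0.70 and Atf3 by 0.69 on the log2 scale (blocked limma adjusted p = 0.00778 and 0.0325). Neither passed without replicate 2 (0.0938 and 0.222), nor Atf3 without replicate 3 (0.156), and without replicate 2 the list counted 0 higher and 1 lower.

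Genes reported as targets of the family in various tissues also went both ways. Of 23 tested 4 were higher and 7 lower, beside 8.32% and 8.96% of all genes. The median of 0.13 turned to −0.031 without replicate 2. Plau, which encodes urokinase and has been linked to KLF6, had 778, 2834 and 2675 normalized counts in the controls and 338, 896 and 1031 after YAP siRNA. Library 1 was lowest in both groups, YAP siRNA libraries 2 and 3 overlapped control library 1, and the log2 fold change was −1.41 (blocked limma adjusted p = 0.00121, unblocked 0.447). Cdkn1a, the cell cycle inhibitor gene that KLF4 and KLF6 activate, fell by 0.95 while Klf4 and Klf6 themselves rose. Its limma adjusted p was 0.00164 with the block and 0.0124 without replicate 2.

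Ccl5, the chemokine gene known as a KLF13 target, had 30.3, 62.4 and 63.6 normalized counts in the controls and 64.9, 248 and 265 after YAP siRNA. The YAP siRNA libraries were all above the controls, by little for library 1, and the log2 fold change was 1.70 (SE 0.279; blocked limma adjusted p = 0.00685, unblocked 0.349). The call was lost once replicate 2 was left out (0.0839). Tagln, a smooth muscle gene that KLF4 represses and KLF5 activates in that tissue, was chosen after its values were seen: it had 19.7, 32.7 and 20.7 normalized counts in the controls and 44.5, 107 and 140 after YAP siRNA. The groups did not overlap, and Tagln rose by 1.84 on the log2 scale (blocked limma adjusted p = 0.0147), a call lost without replicate 2 (0.101) and without replicate 3 (0.0672). Without replicate 2 the list counted 0 higher and 2 lower.

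**Figure D4:**
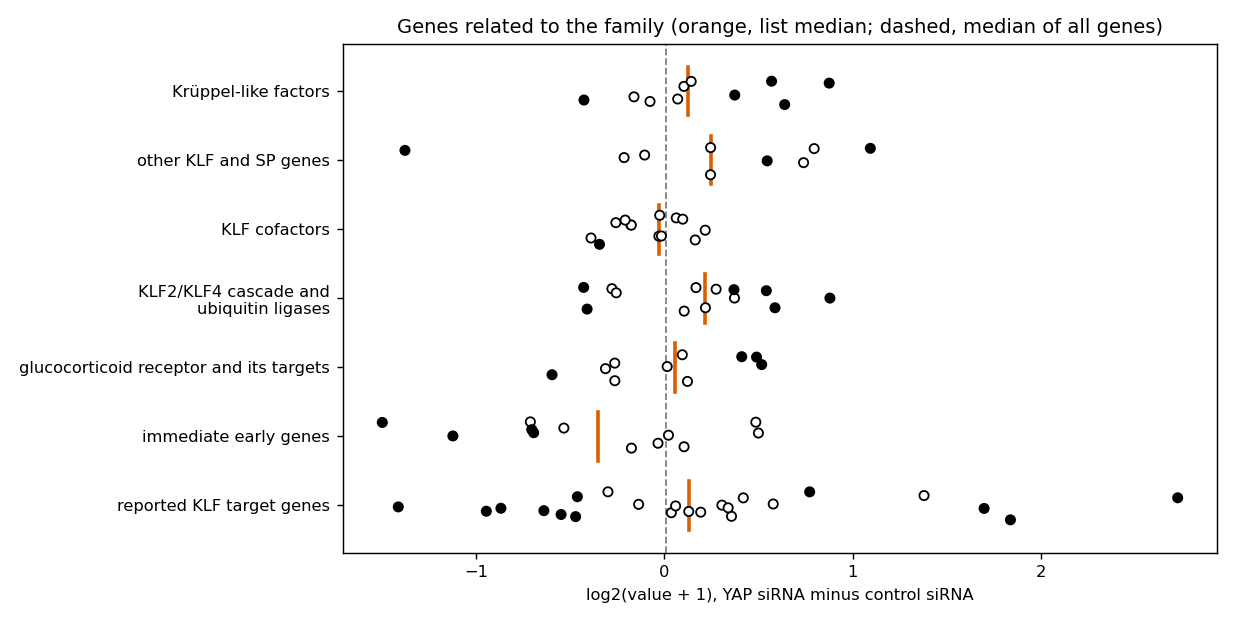
Difference in log2(value + 1) between YAP siRNA and control siRNA for the 10 Krüppel-like factor genes and the tested genes of each related list (filled, passed the test with the replicate block; vertical spread within a row is only for legibility). Orange bars are list medians and the dashed line is the median of all genes tested, 0.0094; the immediate early genes have the lowest median, −0.35.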

How the data were processed

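Poly(A) RNA was sequenced as directional paired-end libraries, per the labels' protocols. The tools TopHat2 2.0.9, HTSeq 0.6.1 and DESeq 1.14.0 and the build mm9 are listed, per the submitters' processing notes; the sources used here do not give the annotation, strand setting, treatment of shared reads or filters, so reads of antisense or overlapping genes cannot be told apart. The authors deposited normalized counts (treated as a signal): reads per gene over the size factor of that library. All values above 0 were whole multiples (within 0.01 reads) of the worth of 1 read, 0.461 to 1.52 normalized counts, so reads were recovered for count tests.

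Here, log2(value + 1) was tested with limma 3.58.1 in R 4.3.3 (with a mean-variance trend; 12820 genes of mean 10 or more, p-values adjusted by Benjamini-Hochberg), without and with the replicate number as a block. Deviations from group means correlated at 0.788, 0.705 and 0.532 for same-numbered libraries, every one over 0.1, so libraries were treated as paired by number, though no label says so and control 2 with YAP 3 (0.552) and control 3 with YAP 2 (0.516) were about as close. Alternatives were other pseudocounts, filters, scalings and variance models, the count tests of edgeR 4.0.16 and DESeq2 1.42.0, and leaving out libraries. Members and lists were chosen with earlier results of these data known. In each related list up to 3 genes that passed with the block, with the smallest p, were named, or 1 where none passed. Libraries within a group all differed beyond counting noise (chi-square per degree of freedom at least 8.04).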

Additional observations from a re-analysis of the deposited data

How the results depend on the processing

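Without a block the limma count over all genes stayed at 0 under other pseudocounts, filters, scalings, no trend and edgeR, and was 729 with DESeq2, where 1 member was higher. With the replicate block 2216 genes passed, 4 members higher and 1 lower. With the block the totals were 2235 with pseudocount 10, 2137 with no filter, 2251 with one total, 2349 with quantiles, 30 with no trend, 2479 with edgeR and 2490 with DESeq2. The members higher then numbered 4, 3, 4, 3, 0, 4 and 4, and the members lower 1, except 0 with no trend. With the block and without replicate 1, 2 or 3 of both groups the totals were 5596, 300 and 1128, the members higher 5, 0 and 2, and the members lower 2, 0 and 0. Leaving out 1 library without a block gave totals from 0 to 497 (497 without control library 1) and no member called. An alternative chosen after seeing the data, no block without both libraries of number 1, gave 4018 genes, with 5 members higher and 1 lower, and 0 genes for number 2 or 3. The cause of these shifts was not tested.

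The members called with the block kept their direction in all settings run, but not their size. With 1 library left out Klf5 ranged from −0.86 (without YAP library 1) to −0.075 (without control library 1), Klf13 from 0.23 to 0.58, Klf4 from 0.66 to 1.03, Klf6 from 0.44 to 0.77 and Klf7 from 0.48 to 0.95. Signs turned in 4 genes that did not pass. Klf2 ranged from −0.63 to 1.03 with 1 library left out and was −0.21 without replicate 2. Klf3 ranged from −0.0013 to 0.18 and Klf15 from −0.67 to 0.42 with 1 library left out. Klf10 was 0.020 without replicate 2. Klf2 and Klf15 rest on as few as 4 and 5 reads in the libraries numbered 1.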

Other observations

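Values for the rest of the KLF and SP family, on the log2(value + 1) scale with blocked limma p-values adjusted over all genes tested, were as follows. Klf12, a CtBP-recruiting repressor, differed by 0.74 (limma adjusted p = 0.236) and Klf16, which recruits SIN3A, −0.21 (limma adjusted p = 0.235). Sp2 had −0.10 and Sp8 had 0.80 (limma adjusted p = 0.612 and 0.0828). Klf1, Klf14, Klf17, Sp5, Sp6, Sp7 and Sp9 had means under 10 normalized counts and were not tested.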
